A study of Arabidopsis thaliana with 42 samples.

Results

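Salicylate is the plant hormone of defence against pathogens that feed on living tissue, and the genes described here make it, carry it, sense it or respond to it. The 10 loci were PR1, BGL2, PR5, EDS1, PAD4, ICS1, EDS5, NPR1, FMO1 and ALD1. Each was taken as the probe set whose locus column in the deposited table names it, which gave 10 probe sets, 1 per gene, of 22810 on the array. Of these, 9 were among the 16129 probe sets tested. ALD1 had no p-value in the authors' table and was left out of the tests.

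The seedlings were whole Arabidopsis thaliana Columbia plants, 7 days old, grown in liquid medium, with a flask of their own for each sample. In the GR-REV line (35S::GR-REV) the leaf polarity factor REVOLUTA carries the hormone-binding part of the glucocorticoid receptor, and in the KAN1-GR line (35S::KAN1-GR) the opposing factor KANADI1 carries it. The 35S promoter drives both fusions in most tissues, and dexamethasone (DEX), a steroid, lets them enter the nucleus. GR-REV was collected on day 1 after 0, 30, 60 and 120 min in 50 µM DEX, and KAN1-GR on day 2 after 0, 30 and 60 min. Wild type, with no transgene, was grown with each line and given the same DEX treatment at the same times. This makes 14 groups of 3 arrays (42 in all), and the 0 min tissue was frozen before DEX was added.

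In Arabidopsis most pathogen-induced salicylate comes from chorismate in the plastid, through isochorismate synthase. The lipase-like proteins EDS1 and PAD4 act together upstream of its accumulation, and NPR1 binds salicylate and activates genes for secreted pathogenesis-related proteins. Pipecolate, an amino acid made in part by ALD1, is hydroxylated by FMO1 into a signal of systemic resistance that acts with salicylate.

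All values are log2 and have as their zero the median of 6 untreated wild-type arrays, so a value of 0 is the level of untreated wild type and the levels of different genes cannot be ordered. Differences are given with their standard error, and a call is an adjusted p below 0.05 in limma over all tested probe sets. Precision is limited by the number of arrays. The REV probe set was at 3.99 to 4.42 in GR-REV and at -0.05 to 0.45 in wild type of day 1. The KAN1 probe set was at 8.12 to 9.39 in KAN1-GR and at -0.18 to 0.50 in wild type of day 2. Both probe sets also detect the transgene, so they check the labels and not the native gene. Before DEX, 5 of the 6 day 1 arrays (all 3 of wild type and replicates 1 and 2 of GR-REV) had values of the plastid transcript psaA below -4, whereas the lowest on any other array was 1.35. Where a line difference of the 9 tested genes over all times was called, it is therefore also given over the times after 0 min. Each construct is represented by a single line, in which effects of the transgene, of where it inserted and of any other change carried by the line cannot be told apart. In whole seedlings, fewer cells of a type and less RNA per cell cannot be told apart either.

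**Figure D1:**
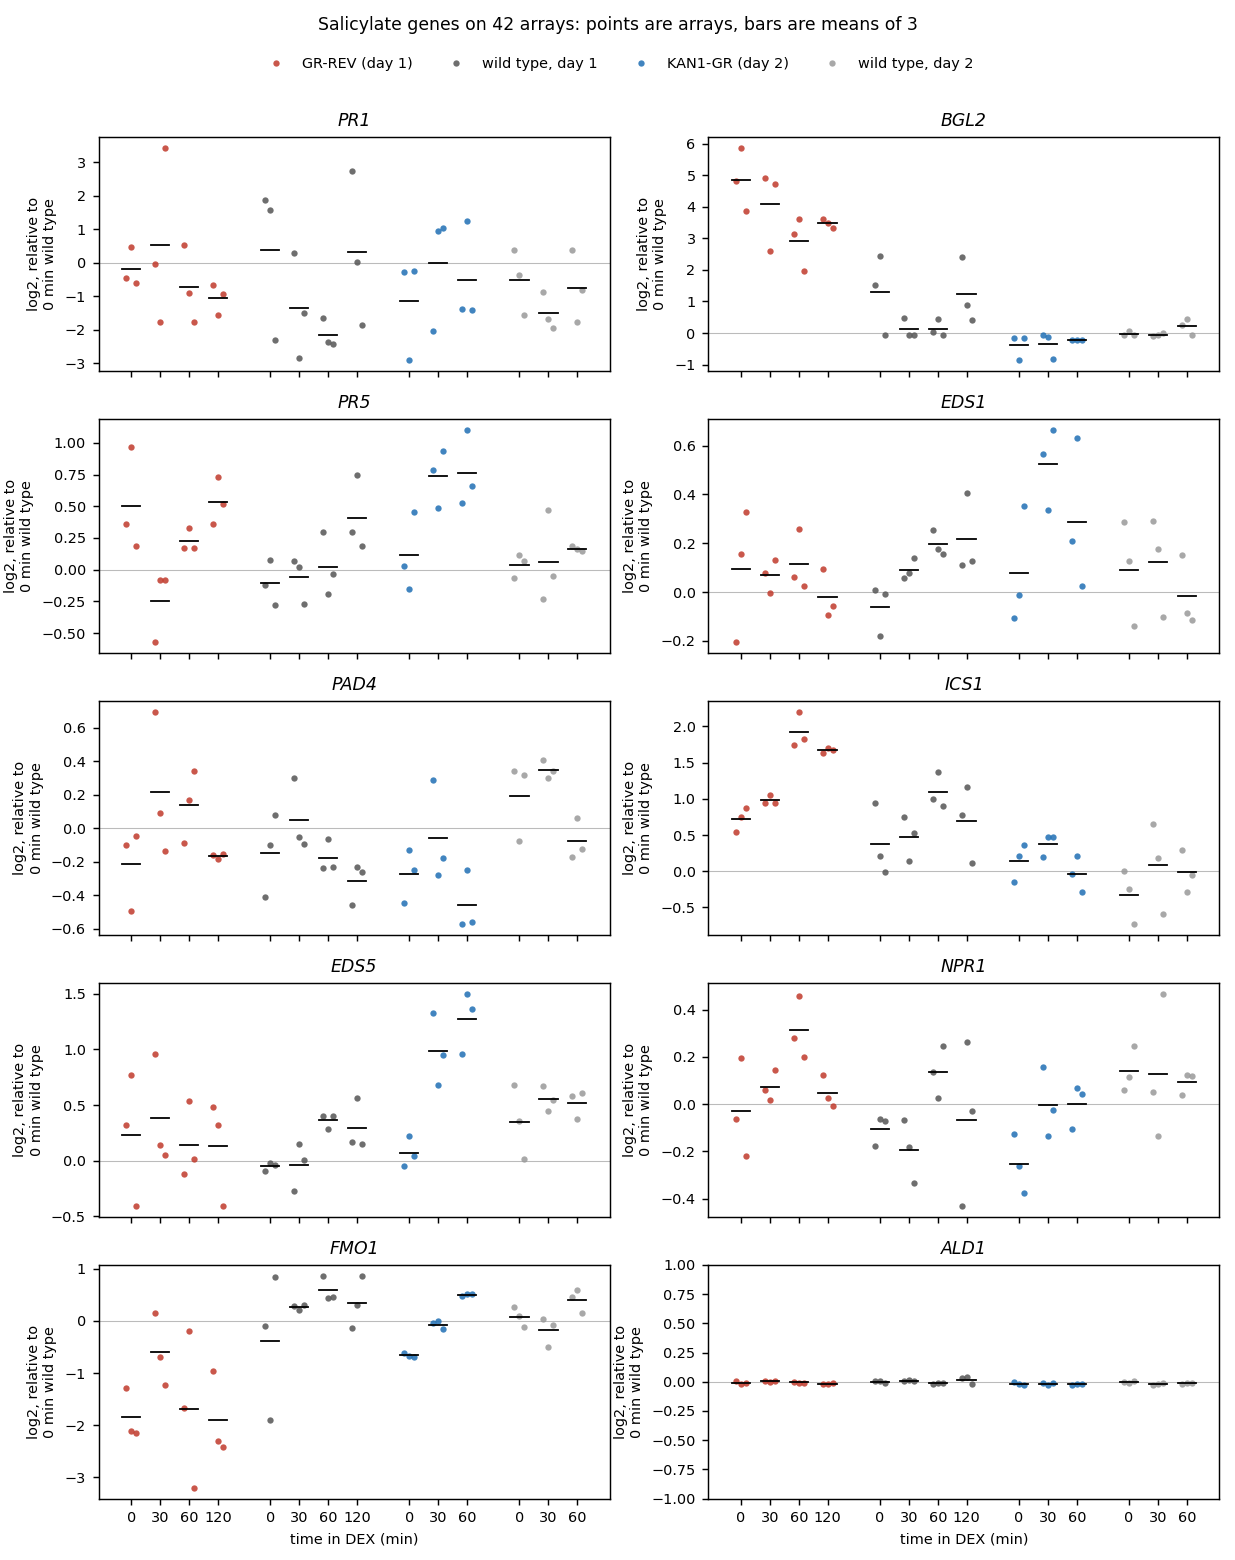
Log2 level of each of the 10 genes on every array (vertical axes, relative to the median of 0 min wild type, with a scale of its own for each gene) by line, day and time in DEX (horizontal axis, min). Points are arrays and black bars are means of 3. BGL2 in GR-REV, from 1.95 to 5.88, stands above wild type of the same time, FMO1 in GR-REV mostly below it, PR1 scatters within groups, and ALD1 lies flat.

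The 9 tested genes did not all move one way in either line. In GR-REV, averaged over its 4 times, BGL2 was 8.77-fold and ICS1 1.59-fold higher than in wild type of day 1, and FMO1 was 3.27-fold lower. PR1, the gene most often used as a salicylate marker, gave no call in any of the 16 comparisons. In KAN1-GR, averaged over its 3 times, PR5 and EDS1 were higher and PAD4 and NPR1 lower than in wild type of day 2, each by less than 0.5 on the log2 scale. In GR-REV 3 of 9 genes were called, where 34% of all tested probe sets were, and in KAN1-GR 4 of 9, where 34.7% were. Both shares are near the background, so their number says nothing about these genes as a set. The median of the 9 was 0.16 in GR-REV and 0.23 in KAN1-GR, against medians of -0.01 and 0.000263 over all tested probe sets.

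**Figure D2:**
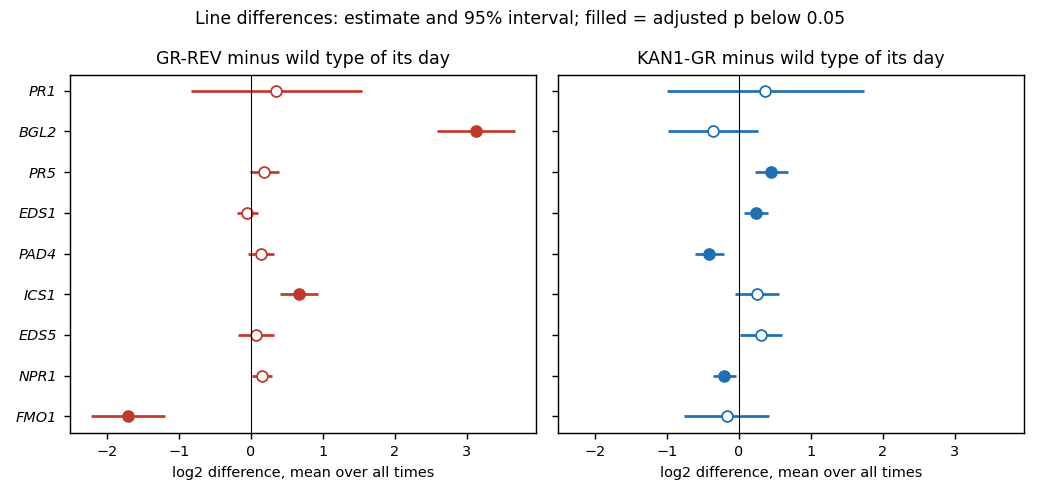
Difference of each line from wild type of its day, as the mean over all times (horizontal axis, log2), for the 9 tested genes. Points are estimates from 12 against 12 arrays for GR-REV and 9 against 9 for KAN1-GR, bars are 95% intervals, and filled points have an adjusted p below 0.05: BGL2, ICS1 and FMO1 in GR-REV, and PR5, EDS1, PAD4 and NPR1 in KAN1-GR.

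ICS1 (AT1G74710) encodes isochorismate synthase, the enzyme that opens the main route to salicylate. At 0 min it was at 0.55, 0.75 and 0.87 in GR-REV, against 0.94, 0.21 and -0.01 in wild type, and at 30 min at 0.94, 1.06 and 0.94 against 0.75, 0.14 and 0.52. At 60 min it was at 1.75, 2.20 and 1.83 in GR-REV, against 1.00, 1.37 and 0.91 in wild type. At 120 min it was at 1.64, 1.70 and 1.68 in GR-REV, against 0.78, 1.17 and 0.12. The groups overlapped at 0 min and were apart at the other times, with every GR-REV array above every wild-type array. Taken alone, the difference was not called at 30 min (0.51, adjusted p = 0.270) and was called at 60 and 120 min (0.84 and 0.98). Over all times the difference was 0.67 ± 0.13 (adjusted p = 1.19e-04, n = 12 against 12). After quantile normalisation it was 0.24 and not called (adjusted p = 0.300). Over the times after 0 min it was 0.77 (adjusted p = 1.32e-04).

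ICS1 also differed between the days of wild type before DEX, which was the one call among the 9 genes in that comparison (0.70 ± 0.26, day 1 minus day 2, adjusted p = 0.0482, n = 3 against 3). The background there was 22.9%. The call was lost without the wild-type arrays at 0 min, day 1 replicate 1 or 2 or day 2 replicate 5 or 6, among the leave-one-out fits. In KAN1-GR, ICS1 ranged from -0.29 to 0.48, against -0.73 to 0.66 in wild type of day 2, so that KAN1-GR lay within the range of wild type (0.24 ± 0.15, adjusted p = 0.216, n = 9 against 9).

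EDS5 (AT4G39030) encodes the plastid membrane transporter that exports isochorismate. In KAN1-GR it was at -0.04, 0.22 and 0.04 at 0 min, at 1.33, 0.68 and 0.95 at 30 min, and at 0.96, 1.50 and 1.36 at 60 min. Wild type of day 2 was at 0.68, 0.35 and 0.02 at 0 min, at 0.67, 0.45 and 0.54 at 30 min, and at 0.58, 0.37 and 0.61 at 60 min. At 30 and 60 min every KAN1-GR array was above every wild-type array, at 30 min by a narrow margin, and at 0 min the groups overlapped. Taken alone, the difference was not called at 30 min (0.43, adjusted p = 0.262) and was called at 60 min (0.75, adjusted p = 0.0303). Over all times the difference was 0.30 ± 0.14 and not called (adjusted p = 0.0971). Over the times after 0 min it was 0.59 ± 0.17 and called (adjusted p = 0.00968, n = 6 against 6). In GR-REV, EDS5 ranged from -0.41 to 0.96, against -0.27 to 0.57 in wild type of day 1 (0.08 ± 0.12, adjusted p = 0.670).

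EDS1 (AT3G48090) and PAD4 (AT3G52430), partners in 1 protein complex, went opposite ways in KAN1-GR. EDS1 ranged from -0.11 to 0.67 with a median of 0.34 in KAN1-GR, against -0.14 to 0.29 with a median of 0.13 in wild type of day 2. The difference over all times was 0.23 ± 0.08 (adjusted p = 0.0303, n = 9 against 9), and it was not called after quantile normalisation (0.17), with array weights (0.11) or in 7 of 18 leave-one-out fits. Over the times after 0 min it was 0.35 (adjusted p = 0.00859). At 30 and 60 min taken alone it was not called (adjusted p = 0.0590 and 0.151). PAD4 was at -0.45, -0.13 and -0.25 at 0 min, at 0.29, -0.28 and -0.18 at 30 min and at -0.57, -0.25 and -0.56 at 60 min in KAN1-GR. Wild type of day 2 was at 0.34, -0.08 and 0.32, at 0.41, 0.30 and 0.34, and at -0.17, 0.06 and -0.12 at the same times. Every KAN1-GR array was below every wild-type array of its time, at 30 min by a narrow margin. Taken alone, the PAD4 differences at 30 and 60 min were not called (adjusted p = 0.114 and 0.128). The difference over all times was -0.42 ± 0.10 (adjusted p = 0.00127), and -0.39 over the times after 0 min (adjusted p = 0.0134).

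In GR-REV neither partner was called. EDS1 ranged from -0.20 to 0.33 in GR-REV and from -0.18 to 0.41 in wild type of day 1 (-0.05 ± 0.07, 95% interval -0.19 to 0.10). PAD4 ranged from -0.49 to 0.70 in GR-REV and from -0.46 to 0.30 in wild type (0.14 ± 0.09, 95% interval -0.03 to 0.32). These intervals bound the differences of both genes well below the size seen for BGL2.

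NPR1 (AT1G64280), the salicylate receptor and co-activator, kept within a narrow band. It ranged from -0.22 to 0.46 in GR-REV and from -0.43 to 0.26 in wild type of day 1 (0.16 ± 0.07, adjusted p = 0.0697). The GR-REV difference was called after quantile normalisation (0.17, adjusted p = 0.0475), with array weights (0.18, adjusted p = 0.0127) and in 2 of 24 leave-one-out fits. In KAN1-GR NPR1 ranged from -0.38 to 0.16, against -0.13 to 0.47 in wild type of day 2, with a difference of -0.21 ± 0.08 (adjusted p = 0.0390, n = 9 against 9). That difference lay mainly at 0 min, where NPR1 was at -0.12, -0.26 and -0.38 in KAN1-GR and at 0.06, 0.11 and 0.25 in wild type. Over the times after 0 min it was -0.11 (adjusted p = 0.418), and the call was lost in 9 of 18 leave-one-out fits.

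BGL2 (AT3G57260), also known as PR2, encodes a secreted beta-1,3-glucanase that cuts fungal cell walls. At 0 min it was at 4.83, 5.88 and 3.87 in GR-REV, against 1.52, 2.43 and -0.06 in wild type, and at 30 min at 4.92, 2.61 and 4.73 against 0.49, -0.08 and -0.05. At 60 min it was at 3.15, 3.61 and 1.95 in GR-REV, against 0.03, 0.46 and -0.07 in wild type. At 120 min it was at 3.62, 3.48 and 3.34 in GR-REV, against 2.42, 0.89 and 0.42. At each of the 4 times the lowest GR-REV array was above the highest wild-type array of that time. Over all times the difference was 3.13 ± 0.27 (adjusted p = 2.35e-11, n = 12 against 12), the 4th highest of the 16129 tested probe sets. Over the times after 0 min it was 2.99 (adjusted p = 2.02e-09). It was called at 0 min (3.56 ± 0.53, adjusted p = 1.09e-05, n = 3 against 3) and at 30, 60 and 120 min taken alone (3.97, 2.76 and 2.24).

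Before DEX, BGL2 was therefore already high in GR-REV, and it was 1 of 3 genes called there. PR5 (0.61 ± 0.20, adjusted p = 0.0323) and FMO1 (-1.46 ± 0.51, adjusted p = 0.0444) were the others, at a background of 15.9%. The PR5 and FMO1 calls were both lost without wild-type day 1 replicate 1 (0.60 and -1.32), without wild-type replicate 3 (0.53 and -0.86) and without GR-REV replicate 2 (0.38 and -1.34). Both calls were lost after quantile normalisation (adjusted p = 0.115 and 0.147) and with array weights (0.0508 and 0.213), and the FMO1 call also with all probe sets tested (0.0729). The FMO1 call was lost too without GR-REV replicate 3 (-1.31), and without wild-type replicate 2 the FMO1 difference was -2.22. In KAN1-GR, BGL2 ranged from -0.85 to -0.08, against -0.09 to 0.45 in wild type of day 2 (-0.36 ± 0.31, adjusted p = 0.392), with the arrays apart at 0 and 60 min. In KAN1-GR at 0 min none of the 9 genes was called by limma, at a background of 10.7%, and PAD4 and NPR1 had an unadjusted p below 0.05.

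PR1 (AT2G14610) encodes a small secreted defence protein and had the highest residual standard deviation of all tested probe sets, 1.52, against a median of 0.186. At 0 min it was at -0.45, 0.48 and -0.61 in GR-REV and at 1.87, 1.57 and -2.31 in wild type of day 1. At 30 min it was at -0.03, -1.77 and 3.44 in GR-REV and at 0.28, -2.85 and -1.48 in wild type. Single groups thus spanned more than 4 units on the log2 scale, and the groups overlapped at both times. Its difference over all times was 0.35 ± 0.58 in GR-REV (95% interval -0.84 to 1.54, adjusted p = 0.687) and 0.36 ± 0.67 in KAN1-GR (95% interval -1.01 to 1.74, adjusted p = 0.714). Both intervals include 0 and are several times wider than those of EDS1 and PAD4. BGL2 and FMO1, with residual standard deviations of 0.69 and 0.66, were next among the 10 genes.

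**Figure D3:**
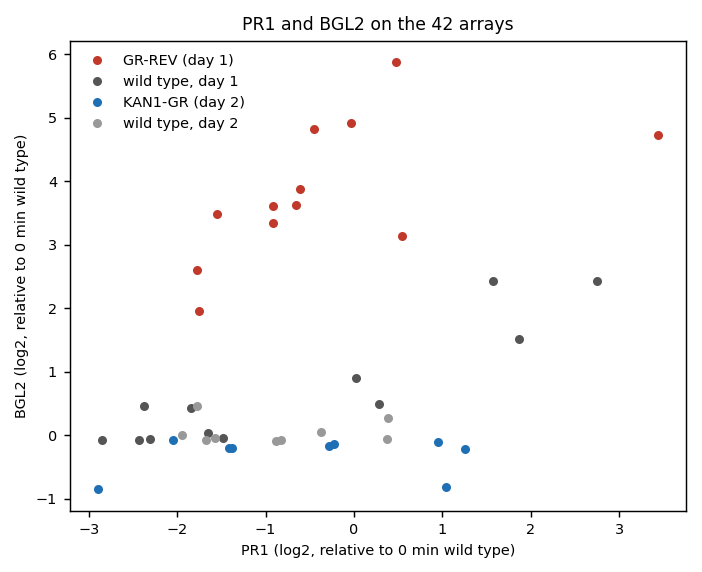
BGL2 (vertical axis) against PR1 (horizontal axis) on each of the 42 arrays, both log2 relative to 0 min wild type, coloured by line and day. The 12 GR-REV arrays lie at BGL2 values of 1.95 to 5.88 and PR1 values of -1.77 to 3.44, and the other 30 at BGL2 values of -0.85 to 2.43 and PR1 values of -2.90 to 2.75.

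PR1 and BGL2 are both used as markers of salicylate action. Over the 42 arrays, deviations of PR1 and BGL2 from their group means had a Pearson r of 0.62, whereas their 14 group means had an r of 0.39. The arrays share a normalisation, and both values are descriptions. On the day 1 wild-type arrays where PR1 was highest (1.57, 1.87 and 2.75), BGL2 was also highest, at 2.43, 1.52 and 2.42. In KAN1-GR the arrays with the highest PR1 values, 1.25 and 1.04, had BGL2 values of -0.21 and -0.82.

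PR5 (AT1G75040) encodes a thaumatin-like protein of the same secreted group. In KAN1-GR it was at 0.03, -0.15 and 0.46 at 0 min, at 0.79, 0.49 and 0.94 at 30 min, and at 0.53, 1.10 and 0.66 at 60 min. Wild type of day 2 was at -0.07, 0.11 and 0.07 at 0 min, at -0.23, 0.47 and -0.05 at 30 min, and at 0.18, 0.16 and 0.15 at 60 min. The groups were apart at 30 and 60 min and overlapped at 0 min. Over all times PR5 was higher in KAN1-GR by 0.45 ± 0.11 (adjusted p = 0.00267, n = 9 against 9), and by 0.64 over the times after 0 min. In GR-REV its difference over all times was 0.19 ± 0.10 (adjusted p = 0.149, n = 12 against 12).

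FMO1 (AT1G19250) encodes the flavin-dependent monooxygenase that makes N-hydroxypipecolate. At 0 min it was at -1.29, -2.11 and -2.15 in GR-REV, against -0.09, -1.89 and 0.83 in wild type, and at 30 min at 0.15, -0.70 and -1.22 against 0.29, 0.21 and 0.30. At 60 min it was at -1.68, -0.19 and -3.20 in GR-REV, against 0.86, 0.44 and 0.46 in wild type. At 120 min it was at -0.97, -2.30 and -2.42 in GR-REV, against -0.14, 0.31 and 0.87. The groups overlapped at 0 min through wild-type replicate 2, and at 30, 60 and 120 min every GR-REV array was below every wild-type array. At 30 min the margin was narrow, and the difference at that time alone was not called (-0.86, adjusted p = 0.359). It was called at 60 and 120 min alone (-2.28 and -2.24). Over all times the difference was -1.71 ± 0.25 (adjusted p = 1.95e-06, n = 12 against 12), the 17th lowest of the tested probe sets, and -1.79 over the times after 0 min. In KAN1-GR, FMO1 ranged from -0.68 to 0.52, against -0.50 to 0.59 in wild type of day 2 (-0.17 ± 0.29, adjusted p = 0.682).

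ALD1 (AT2G13810), the aminotransferase that begins pipecolate synthesis, varied from -0.03 to 0.04 over all 42 arrays. With all probe sets tested, none of its differences was called. So flat a value in a centred table does not show whether the transcript was present.

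Over the 14 groups, BGL2 had its 4 highest means in the 4 GR-REV groups (4.86 at 0 min, 4.09 at 30 min, 2.90 at 60 min and 3.48 at 120 min), followed by wild type of day 1 at 0 min (1.30) and 120 min (1.24). The other 8 groups lay between -0.39 and 0.21. For FMO1 the 3 lowest means were those of GR-REV at 120 min (-1.90), 0 min (-1.85) and 60 min (-1.69), and for ICS1 the highest were GR-REV at 60 min (1.93) and 120 min (1.67). Neighbours in the BGL2 order differed by less than the larger of their standard deviations, except GR-REV at 60 min and wild type of day 1 at 0 min, and wild type of day 2 at 30 min and KAN1-GR at 60 min. Group by group, GR-REV and wild-type arrays did not overlap for 2, 4, 3 and 5 of the 9 genes at 0, 30, 60 and 120 min, where 27.8%, 28.6%, 29.8% and 30.8% of all tested probe sets did not. For KAN1-GR it was 4 of 9 at each of 0, 30 and 60 min, against 34.9%, 27% and 33.6%.

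The DEX response of a line is its change from 0 min less that of wild type of its day, which asks what follows entry of the fusion into the nucleus. None of the 9 genes was called in any of the 5 responses. The background was 1.38%, 4.36% and 3.84% for GR-REV at 30, 60 and 120 min and 2.4% and 6.84% for KAN1-GR at 30 and 60 min. At an unadjusted p below 0.05 the counts were 1, 0 and 0 for GR-REV and 3 and 1 for KAN1-GR. In the authors' deposited table, the genotype-by-time p of a two-way analysis of variance was 0.166 (PR5) to 0.935 (EDS1) for GR-REV and 0.0987 (EDS5) to 0.985 (PAD4) for KAN1-GR.

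The response with the smallest p was that of EDS5 in KAN1-GR, 1.03 ± 0.35 at 60 min (95% interval 0.32 to 1.74, adjusted p = 0.0719, n = 3 arrays in each of 4 groups). With array weights it was called (adjusted p = 0.0219), as was the change against the line's own 0 min alone (adjusted p = 6.2e-04). EDS5 in KAN1-GR at 30 min gave 0.71 ± 0.35 (adjusted p = 0.427). PR5 in KAN1-GR gave 0.60 ± 0.28 at 30 min (adjusted p = 0.389) and 0.52 ± 0.28 at 60 min (adjusted p = 0.333), and in GR-REV it gave -0.80 ± 0.28 at 30 min (adjusted p = 0.216). The precision differed widely: the 95% interval of PR1 in GR-REV at 30 min ran from -0.90 to 5.83, that of NPR1 from -0.19 to 0.58.

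**Figure D4:**
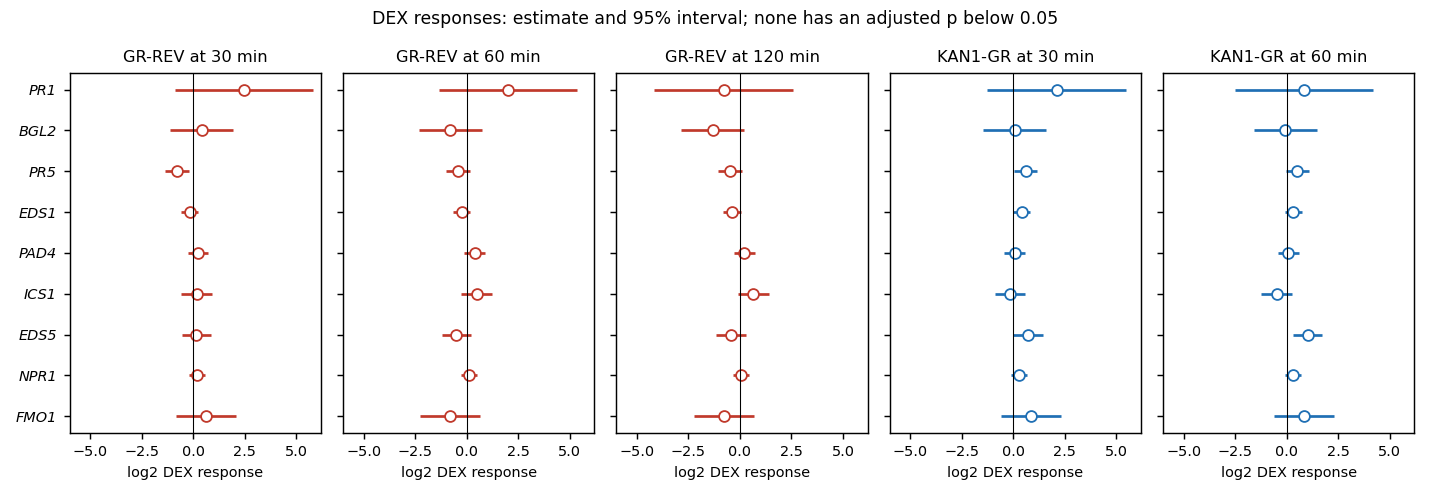
DEX response (horizontal axes, log2) of the 9 tested genes in GR-REV at 30, 60 and 120 min and in KAN1-GR at 30 and 60 min, as estimates with 95% intervals from 3 arrays in each of 4 groups. None has an adjusted p below 0.05. The interval of EDS5 in KAN1-GR at 60 min, 0.32 to 1.74, lies above 0, and those of PR1 are the widest.

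Within GR-REV alone, PR5 was lower at 30 min than at 0 min by 0.75 on the log2 scale (adjusted p = 0.00848), BGL2 was lower at 60 min than at 0 min by 1.96 on the log2 scale (adjusted p = 0.00896), and ICS1 was higher at 60 min by 1.21 (adjusted p = 0.00118) and at 120 min by 0.95 (adjusted p = 0.0131). These were 1, 2 and 1 of the 9 genes at 30, 60 and 120 min, where 17%, 18.1% and 12% of all tested probe sets were called. These changes are not corrected for wild type of day 1, where BGL2 averaged 0.14 at 60 min and 1.30 at 0 min, and ICS1 1.09 at 60 min and 0.38 at 0 min. Corrected for it, BGL2 gave -0.80 ± 0.75 (adjusted p = 0.682) and ICS1 0.49 ± 0.37 (adjusted p = 0.583) at 60 min. In wild type itself, over both days at 30 and 60 min and on day 1 at 120 min, 0 of 9 genes were called by limma at backgrounds of 3.87%, 2.33% and 5.13%. At an unadjusted p below 0.05 the counts were 0, 1 (ICS1, 0.51 ± 0.18 at 60 min) and 1 (PR5, 0.51 ± 0.20 at 120 min). The wild-type changes of the 2 days also did not differ by a call for any of the 9, at backgrounds of 3.45% and 1.4%, with 0 and 0 at an unadjusted p below 0.05.

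The lines were set against each other as the difference of GR-REV from its wild type less that of KAN1-GR from its own, over 0 to 60 min. BGL2 (3.79 ± 0.43, adjusted p = 2.60e-08), PAD4 (0.56 ± 0.14, adjusted p = 0.00219) and NPR1 (0.38 ± 0.11, adjusted p = 0.00768) were higher and FMO1 (-1.36 ± 0.41, adjusted p = 0.0105) lower on the GR-REV side. These were 4 of 9 genes, at a background of 33.8%. The FMO1 call was lost after quantile normalisation (-0.97, adjusted p = 0.0661).

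The rest of the pathway was followed in 6 lists with 54 genes, of which 44 were tested. In GR-REV over all times 22 were higher and 8 lower than in wild type of day 1, where 14.3% of all tested probe sets were higher and 19.7% lower. In KAN1-GR 6 were higher and 18 lower than in wild type of day 2, where 17.3% were higher and 17.3% lower.

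The salicylate-responsive genes were called higher in GR-REV for 9 of 10, with a median of 1.30, and lower in KAN1-GR for 5 of 10, with a median of -0.41. The background was 14.3% higher in GR-REV and 17.3% lower in KAN1-GR. WRKY53, a transcription factor gene of defence and leaf ageing, averaged 2.31 ± 0.97 in GR-REV and 0.08 ± 0.28 in wild type of day 1 (SD, n = 12 each), and -1.68 ± 0.50 in KAN1-GR and -0.05 ± 0.32 in wild type of day 2 (SD, n = 9 each). Its differences were 2.23 ± 0.14 (adjusted p = 1.50e-14) and -1.63 ± 0.16 (adjusted p = 1.59e-09). In neither line did its arrays overlap those of wild type of the same day, which held for 2.11% of all tested probe sets in GR-REV and 3.14% in KAN1-GR. WRKY70, which acts between salicylate and jasmonate signalling, differed by 1.71 and -0.58, WRKY18 by 0.99 and -1.34, and WRKY60 by 0.74 and -0.54, in GR-REV and in KAN1-GR, all called.

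AED1 (2.34), which encodes an apoplastic aspartyl protease-like protein, and LLP1 (1.89), a lectin-like protein gene of systemic resistance, were called in GR-REV. In KAN1-GR they gave -0.07 and -0.02 and were not called. LURP1, a gene of oomycete defence, gave 1.09 and -1.97 in the lines, both called. Before DEX, LURP1 was also called lower in wild type of day 1 than of day 2. In GR-REV its difference from wild type was smaller at 120 min than at 0 min by 3.29. PNP-A (1.50) and ROXY19 (0.77) were called in GR-REV and PCC1 (0.56, adjusted p = 0.112) was not. Over the times after 0 min 8 of the 10 were called higher in GR-REV and 4 lower in KAN1-GR (10.5% and 14.9% of all tested probe sets were). With quantile-normalised values the counts were 9 and 3, and with any 1 array left out 9 to 10 and 3 to 5.

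**Figure D5:**
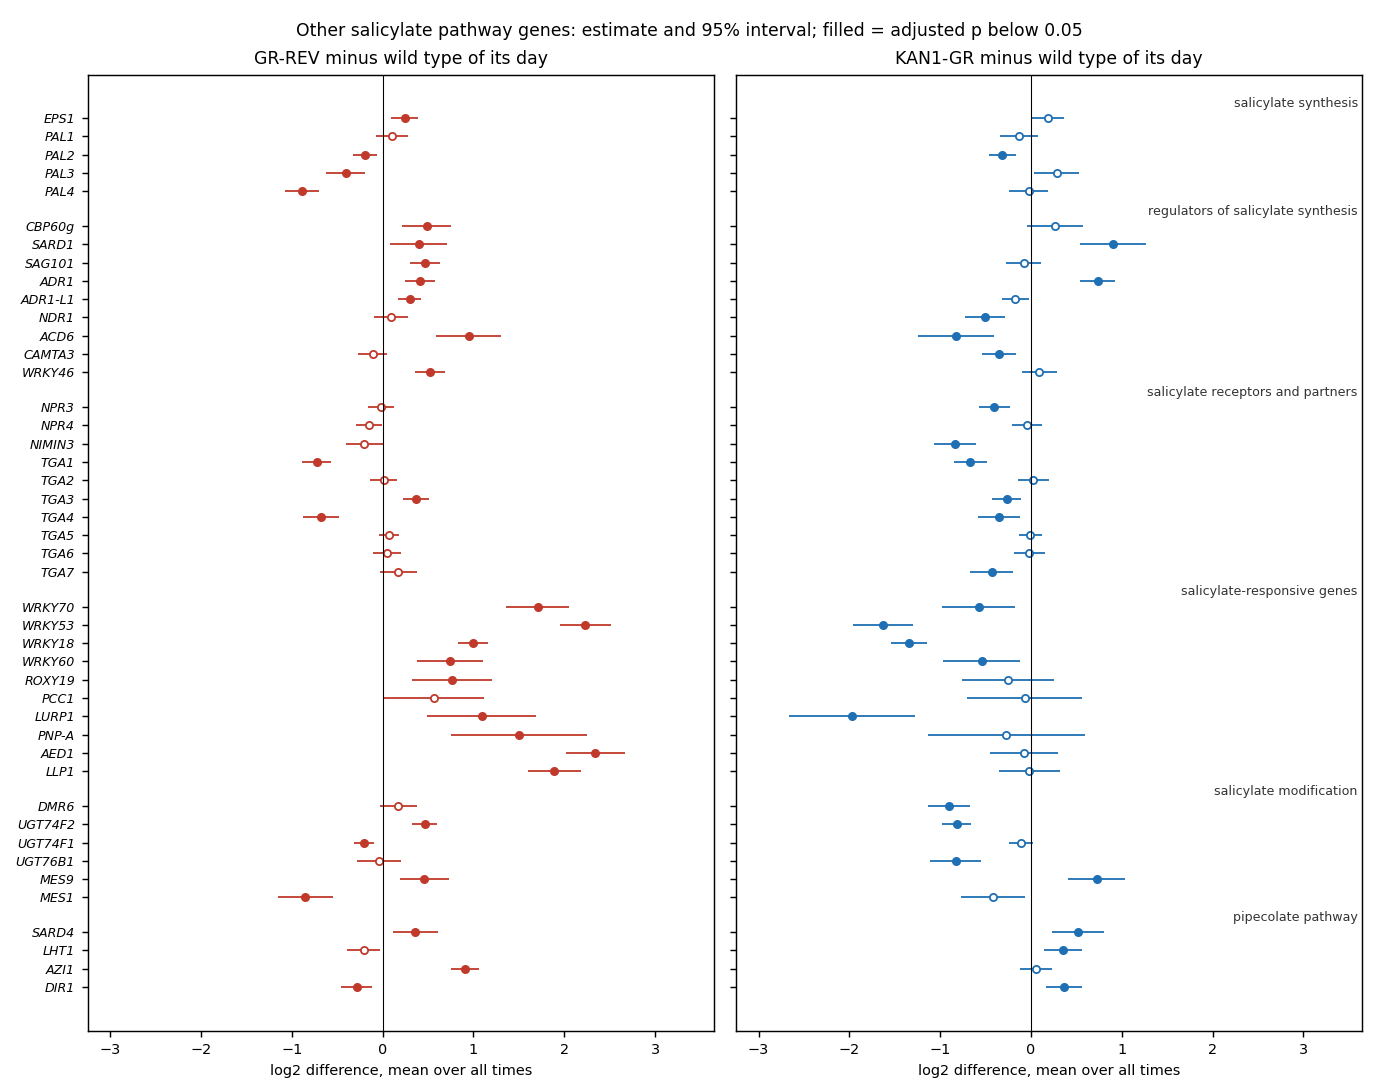
Difference from wild type of the same day, as the mean over all times (horizontal axes, log2), of the 44 tested genes of 6 salicylate pathway lists, for GR-REV (left) and KAN1-GR (right). Points are estimates, bars are 95% intervals and filled points have an adjusted p below 0.05. In the salicylate-responsive list 9 of 10 genes are filled and above 0 in GR-REV and 5 of 10 filled and below 0 in KAN1-GR.

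Of the regulators of salicylate synthesis, 7 of 9 were higher in GR-REV and 0 lower, and in KAN1-GR 2 were higher and 3 lower. The background was 14.3% higher and 19.7% lower in GR-REV, and 17.3% higher and 17.3% lower in KAN1-GR. At 0 min 7 of the 9 were also called higher in GR-REV, with a median of 0.88, against 0.41 over all times. The background at 0 min was 15.9%, in either direction. ACD6, a membrane protein gene that promotes salicylate accumulation, differed by 0.95 ± 0.18 in GR-REV (adjusted p = 7.6e-05) and by -0.82 ± 0.21 in KAN1-GR (adjusted p = 0.00216). CBP60g and SARD1, which encode related activators of ICS1, gave 0.48 and 0.40 in GR-REV, both called. In KAN1-GR they gave 0.27 (not called) and 0.90 (called). The CBP60g difference in GR-REV was smaller at 30, 60 and 120 min than at 0 min, by 1.67, 1.42 and 1.74. Its value over all times therefore leans on the 0 min arrays, and a value over the times after 0 min is not given. ADR1, a helper immune receptor gene, was higher in both (0.41 and 0.73). SARD1 has 2 probe sets, of which the one with the lower ID was used.

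The enzymes of salicylate synthesis went in both directions. Of 5 tested genes of the synthesis list, EPS1 was higher in GR-REV (0.24) and PAL2 (-0.19), PAL3 (-0.41) and PAL4 (-0.89), phenylalanine ammonia-lyases of the other route to salicylate, were lower. In KAN1-GR PAL2 alone was called (-0.32). Among the receptors and their partners 1 of 10 was higher and 2 lower in GR-REV, and 0 higher and 6 lower in KAN1-GR. For this list and the synthesis list, the background was 14.3% higher and 19.7% lower in GR-REV. In KAN1-GR the background was 17.3% higher and 17.3% lower. TGA1, a bZIP factor that works with NPR1, was lower in both lines (-0.73 and -0.67), TGA3 was higher in GR-REV (0.37) and lower in KAN1-GR (-0.27), and the receptor gene NPR3 was lower in KAN1-GR (-0.40).

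Of 6 genes that modify salicylate, 2 were higher and 2 lower in GR-REV, and 1 higher and 3 lower in KAN1-GR. For this list and the pipecolate list, the background was 14.3% higher and 19.7% lower in GR-REV. In KAN1-GR the background was 17.3% higher and 17.3% lower. With so few genes in a list, the counts are descriptions. UGT74F2, a salicylate glucosyltransferase gene, gave 0.46 in GR-REV and -0.82 in KAN1-GR. DMR6, a salicylate hydroxylase gene, gave 0.17 (not called) and -0.90 (called). Of 4 tested genes of the pipecolate list, 2 were higher and 1 lower in GR-REV, among them AZI1, a lipid transfer protein gene of systemic resistance (0.91), and DIR1 (-0.28). In KAN1-GR 3 were higher and 0 lower, and SARD4, the reductase of pipecolate synthesis, gave 0.52 there and 0.36 in GR-REV.

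A few of the 44 genes had called DEX responses. CBP60g fell in GR-REV relative to wild type by 1.67 at 30 min, 1.42 at 60 min and 1.74 at 120 min (adjusted p = 0.0126, 0.0203 and 0.00455), and LURP1 fell by 3.29 at 120 min. WRKY53 rose by 2.19 at 30 min (adjusted p = 0.00149). In KAN1-GR WRKY18 fell by 1.60 at 30 min and by 1.14 at 60 min, and UGT74F2 fell by 1.47 at 60 min. SARD1 rose by 1.87 and MES9, a methyl salicylate esterase gene, by 2.49 at 60 min. The totals over the 44 genes were 1, 0 and 0 risen and 1, 2 and 5 fallen in GR-REV at 30, 60 and 120 min, and 0 and 3 risen and 1 and 5 fallen in KAN1-GR at 30 and 60 min. The backgrounds for rises were 0.862%, 1.75%, 1.18%, 0.694% and 2.88% and for falls 0.521%, 2.61%, 2.65%, 1.71% and 3.96%.

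Other expression programmes differed alongside. The mean of 8 touch and wound genes at 0 min was 0.81 to 1.50 in GR-REV and -0.54 to 0.01 in wild type of day 1, and 6 of the 8 were called higher over all times. After 0 min the lines were closer, and their arrays overlapped at each time. The mean averaged 0.56, 0.22 and 0.47 in GR-REV at 30, 60 and 120 min, against 0.39, 0.12 and 0.14 in wild type. In KAN1-GR that mean at 0 min was -0.67 to -0.43, against -0.04 to 0.23 in wild type of day 2, and 3 of the 8 were called lower. The mean of 8 root genes over the 4 times averaged -0.93, -1.15, -1.04 and -1.27 in GR-REV, against -0.34, -0.83, -0.57 and -0.70 in wild type, and 4 were called lower. In KAN1-GR 2 root genes were higher and 3 lower. Between the 2 wild types at 0 min, 7 of the 8 root genes were called, 2 higher and 5 lower on day 1 (median -0.75, background 22.9%). Their mean in wild type at 0 min was -0.34 on day 1 and 0.19 on day 2. Of 8 leaf photosynthesis genes, 5 were lower in GR-REV at 0 min, with a median of -0.33, and 1 over all times, and 0 were called in KAN1-GR at either. At 0 min 8 of the 8 touch and wound genes were called higher and 4 of the 8 root genes lower in GR-REV. Of all tested probe sets, 15.9% were called in GR-REV and 10.7% in KAN1-GR at 0 min, in either direction. Over all times 14.3% were higher and 19.7% lower in GR-REV, and 17.3% higher and 17.3% lower in KAN1-GR. The part of these differences in the values of the salicylate genes was not tested.

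The genes whose 14 group means were most like those of ICS1 were AT5G62650 (Pearson r = 0.965), AT1G69523 (0.961), GCP1 (0.946), FBL17 (0.941) and CYCD3;1 (0.936). For PR1 the highest r was 0.797 (AT1G03960) and the fifth 0.755 (VDAC5). For BGL2, looked up after its values were seen, they were AT4G12490 (0.975), ATSYTF (0.973), RLP21 (0.966), RAD54 (0.963) and AED1 (0.962). ATSYTF and RAD54 lie in a stretch of chromosome 3, in locus order of assembly TAIR10.1, whose 221 tested genes had a median difference of 1.12 in GR-REV over all times. That stretch was found in earlier work on these data, and none of the 3 members on chromosome 3 (BGL2, EDS1 and PAD4) lies in it. Of the 6 tested genes beside BGL2, 2 were called in GR-REV, which is near the background of 34%. They were BG3 (AT3G57240), a glucanase gene of the same family (1.21, adjusted p = 0.00230), and AT3G57280 (0.17, adjusted p = 0.00208). The other 4 lay between -0.13 and 0.10. Whether the probe sets of BGL2 and BG3 detect each other's transcript was not tested.

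Among the members themselves, the highest r over the 14 group means was that of EDS1 and EDS5 (0.71), and the lowest that of BGL2 and FMO1 (-0.79). BGL2 and ICS1 had an r of 0.66. These correlations are over group means that share arrays, days and normalisation, and they are given as descriptions.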

How the data were processed

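The deposited values are log2 expression values of 42 ATH1 arrays, made by the authors with GCRMA per the submitters' processing notes without a version. The labels do not name the log base, which is that of the method. In every probe set the 6 untreated wild-type arrays have a median of 0 (within 5e-07), so levels are not kept. A second deposited table held the same values (largest difference 0) and the authors' p-values of a two-way analysis of variance for 16164 of 22810 probe sets. Those with a p-value, less control probe sets, were tested: 16129, of which 15138 name 1 gene, 710 several and 281 none. Genes were named from the locus column.

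A limma (3.58.1, R 4.3.3) model with a mean for each of 14 groups was fitted to all arrays, with a common prior spread (28 residual and 3.92 prior degrees of freedom), moderated two-sided tests and, per comparison, p-values adjusted by Benjamini-Hochberg over all 16129, at a threshold of 0.05. Per the labels, replicates are separate flasks. Replicate numbers did not pair the samples (correlations of same-numbered deviations -0.38 to 0.46 on day 1 and -0.39 to 0.64 on day 2). The number of arrays limits the precision, with a median standard error of 0.213 for a DEX response. Replicate arrays of a group correlated at 0.161 to 0.904. The fit was tested on simulated data.

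The members, the 12 lists (93 genes besides the members) and the comparisons were chosen with earlier results of these data known. Besides the members, up to 4 genes of each list by adjusted p per comparison and the 5 genes most like PR1 and ICS1 were to be named. Genes named from the lists beyond those, those most like BGL2 and its neighbours were chosen after their values were seen. Of 54 listed salicylate pathway genes 44 had a tested probe set. Promoter motifs were not analysed here. Alternatives were quantile normalisation, all probe sets, array weights, a spread that follows the mean, a replicate block and leaving out each array. Single times, the times after 0 min and a single reference were added after seeing the data.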

Additional observations from a re-analysis of the deposited data

Results flagged for a closer look

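For 4 genes the difference between a line and its wild type itself differed between the lines, tested as a contrast in limma over 0 to 60 min (GR-REV minus KAN1-GR, n = 9 arrays in each of 4 line and day sets). BGL2 gave 3.79 ± 0.43 (adjusted p = 2.60e-08), with GR-REV above wild type by 3.43 over those times and KAN1-GR at -0.36. FMO1 gave -1.36 ± 0.41 (adjusted p = 0.0105), from -1.53 in GR-REV and -0.17 in KAN1-GR. PAD4 gave 0.56 ± 0.14 (adjusted p = 0.00219), from 0.14 in GR-REV and -0.42 in KAN1-GR. NPR1 gave 0.38 ± 0.11 (adjusted p = 0.00768), from 0.17 and -0.21. The lines were grown on different days, so each is set against the wild type of its own day. A part of the day in the difference between the lines was not tested.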

How the results depend on the processing

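Of the line differences, BGL2 in GR-REV (at 0 min and over all times), FMO1 in GR-REV over all times and PAD4 and PR5 in KAN1-GR over all times kept direction and call under quantile normalisation, with all probe sets, with array weights, with a spread that follows the mean and with the replicate block. The count of the 9 genes called moved in other comparisons. For GR-REV at 0 min it was 3, with 1 on quantile-normalised values (background 7.51%), 1 with array weights (13.5%), and 2 with all probe sets and with the replicate block, where the FMO1 call was lost (adjusted p = 0.0522 with the block). For KAN1-GR at 0 min it was 0, with 2 on quantile-normalised values (24.4%) and 1 with array weights (26.7%). For the days of wild type it was 1, and 4 after quantile normalisation (37.5%), 0 with all probe sets and 0 with the replicate block, which pairs samples by number only. For GR-REV over all times, quantile normalisation lost the ICS1 call and gained that of NPR1 (background 24.2%). Array weights gave 5 in place of 3 for GR-REV over all times (36.8%), and 1 in place of 0 for KAN1-GR at 30 and at 60 min (13.7% and 10.2%) and for the wild-type changes at 30 and 60 min (19.9% and 6.01%).

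Alternatives chosen after seeing the data gave, for the line difference, 1 for GR-REV at 30 min alone, and 1 and 2 for KAN1-GR at 30 and 60 min alone. Taken only against same-time wild type, the DEX responses gave 1, 3 and 3 for GR-REV at 30, 60 and 120 min and 1 and 2 for KAN1-GR at 30 and 60 min. The backgrounds were 9.05%, 12.8%, 15.4%, 14% and 18% of all tested probe sets. Against the line's own 0 min alone they gave 1, 2 and 1, and 1 and 2, at 17%, 18.1%, 12%, 6.41% and 12.3%. BGL2 in GR-REV changed sign when set only against same-time wild type, to 2.76 at 60 min and 2.24 at 120 min, since that reference keeps the difference of the line before DEX. Leaving out 1 array gave 1 to 3 calls for GR-REV at 0 min, 0 to 1 for KAN1-GR at 0 min, 2 to 4 for KAN1-GR over all times, 0 to 1 for KAN1-GR at 60 min, and 0 to 2 for the days of wild type. Where no cause is given, it was not tested.

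Over all probe sets, quantile normalisation took the calls for GR-REV at 0 min to 1211, against 2558, and for KAN1-GR at 0 min to 3933, against 1730. The GR-REV responses went to 61, 286 and 232, against 223, 704 and 619, and the KAN1-GR responses to 799 and 1660, against 387 and 1103. With array weights KAN1-GR at 0 min gave 4308. The day 1 0 min arrays, the wide scatter of PR1 and 3 arrays a group limit what can be seen.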

Other observations

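Defence genes outside the salicylate pathway also differed between the lines. Of 6 tested jasmonate response genes, 5 were higher in GR-REV and 0 lower, with a median of 1.34 over all times, and in KAN1-GR 0 were higher and 4 lower, with a median of -1.19. Over all tested probe sets 14.3% were higher in GR-REV and 17.3% lower in KAN1-GR. The 2 wild types also differed in these genes. Before DEX 3 of the 6 were called lower on day 1 than on day 2 (median -0.71, background 22.9%). The mean of the 6 was -0.69, -0.95 and -0.93 in wild type of day 1 at 0, 30 and 60 min, against 0.48, -0.04 and 0.11 on day 2. TAT3, a tyrosine aminotransferase gene induced by jasmonate, averaged 2.50 ± 0.93 in GR-REV and -0.54 ± 0.57 in wild type of day 1 (SD, n = 12 each). It averaged -2.28 ± 0.87 in KAN1-GR and -0.24 ± 0.65 in wild type of day 2 (SD, n = 9 each). The defensin gene PDF1.2a differed by 2.17 in GR-REV and by -1.60 in KAN1-GR, and JAZ10, which encodes a repressor of jasmonate signalling, by 1.80 and -1.39, all called by limma.

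Both tested genes of camalexin synthesis, PAD3 (1.17, adjusted p = 3.36e-04) and CYP71A13 (0.59, adjusted p = 0.0335), were higher in GR-REV, and in KAN1-GR they gave -0.24 and -0.20 and were not called. The share called higher in GR-REV was 14.3%. In GR-REV their median was 1.96 at 0 min and 0.88 over all times. Their median DEX response there was -0.57, -1.61 and -2.13 at 30, 60 and 120 min. Only the fall of CYP71A13 at 60 min was called (2.19), where 2.61% of all tested probe sets fell. Of 3 tested senescence genes, 1 was higher and 2 lower in each line. The background was 14.3% higher and 19.7% lower in GR-REV, and 17.3% higher and 17.3% lower in KAN1-GR. SAG13 was higher in GR-REV (1.10) and lower in KAN1-GR (-2.10), and SEN1 was called lower in both. The 2 wild types differed in this list too. At 0 min 2 of the 3 were called lower on day 1 than on day 2 (median -1.58, background 22.9%). The mean of the 3 was -0.80 on day 1 and 0.82 on day 2. Before DEX, wild type of day 1 and of day 2 themselves differed in PDF1.2a (-2.71, day 1 minus day 2, adjusted p = 0.0198) and in the salicylate-responsive LURP1 (-2.62, adjusted p = 0.00207).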
